A study of Ambystoma mexicanum with 8 samples.

Results

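In regenerated axolotl jaw, 66 transcripts of middling abundance stood below their pre-surgery level in every library compared. These 66 of 18035 rows of the deposited count table were chosen by a rule on the measured values themselves. Each row carries a transcript identifier, and rows are called transcripts here. A row had to hold at least 10 counts in 3 or more of 7 libraries and a mean of 15 to under 500 CPM over them, where CPM is counts per 1000000 of a library's total. Its highest regenerated CPM had to lie below its lowest pre-surgery CPM, and its pre-surgery mean had to be at least 1.5 times its regenerated mean. The rule thus used the contrast between regenerated and pre-surgery jaw, so the size, the direction and the separation of the groups below describe the members and test nothing.

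The axolotl, Ambystoma mexicanum, is a salamander that keeps larval features as an adult and regrows limbs, tail and jaw after amputation. In such regrowth a wound epidermis closes the stump, cells of the stump form a blastema, and this growth zone then differentiates into the missing tissues. A salamander jaw holds Meckel's cartilage, dermal bone, teeth, skin and muscle, which are rebuilt at different paces. In bulk samples such as these, fewer cells of a type and less RNA per cell cannot be told apart.

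The animals were albino juveniles of 5 cm, cut 5 mm from the midline of the jaw, and no genetic manipulation or agent other than the anaesthetic was stated. Regenerated jaw, taken 5 weeks after the cut, gave 4 libraries, from animals 2, 3, 6 and 11, with 724555 to 942477 counts each. Jaw taken at surgery from animals 2, 3 and 6 gave 3 pre-surgery libraries, with 714809, 758942 and 2519291 counts. Animal 11's pre-surgery library, with only 489 counts, was left out of the rule. The library field of the labels numbers the libraries consecutively within each group, so the order of library preparation, where these numbers reflect it, and the group cannot be told apart. Nothing in the labels says that libraries of a group were prepared independently beyond coming from different animals, so any p-value measures the spread between these samples, which may be technical in part.

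The identifiers all begin with ENSXETT, no gene name stands beside any of them in the table, and the RefSeq gene table for the axolotl assembly UKY_AmexF1_1 lists 0 identifiers of this kind, so it could name none. Which species' sequences the identifiers stand for is not given in the sources used here. Members are therefore given by the rank of their fold, from 1 for the largest, with identifiers for a pair of them. For the same reason the tissue could not be checked against marker genes, no pathway is named and no sequence is shown. The 66 rows formed 55 sets of equal or nearly equal counts, and 22 members shared a set with 1 other member. Such rows cannot be counted as separate measurements, and whether they share reads was not tested. Ranks 32 and 35 had close counts in every library but fell outside the limits for a set. The 55 sets may thus still hold related rows.

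Of the 18035 rows, 4561 passed the count requirement and 3003 of these lay in the abundance window. All 4 regenerated libraries were below all 3 pre-surgery libraries in 231 of the 4561 rows (5.06%) and in 131 of the 3003 (4.36%). The fold limit then left 66. A further 121 rows of the window reached the fold but had overlapping groups. Of these, the overlap came from the regenerated library of animal 3 alone in 49 rows, from that of animal 11 alone in 25, and from the pre-surgery library of animal 6 alone in 46; a row with 1 overlapping pair of libraries counts under both.

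The limits of the rule cut through a continuous range. The member with the smallest fold, at 1.51, averaged 38.3 CPM in regenerated and 57.8 CPM in pre-surgery jaw. The nearest row left out by the fold, at 1.498, averaged 74.9 CPM in regenerated and 112 CPM in pre-surgery jaw. The member with the narrowest gap had a highest regenerated level of 16.7 CPM against a lowest pre-surgery level of 16.8 CPM. The nearest row left out by overlap had 33.1 CPM as its highest regenerated and 32.9 CPM as its lowest pre-surgery level.

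Across members the regenerated mean ran from 6.82 to 272 CPM, with a median of 23.2 CPM, and the pre-surgery mean from 19.2 to 482 CPM, with a median of 45.1 CPM. The fold, pre-surgery over regenerated, had a median of 1.90 and a range of 1.51 to 4.16. It was under 2 in 37 members, from 2 to under 3 in 18, and 3 or more in 11. On the log2 scale of regenerated over pre-surgery mean CPM, the members' median was -0.93, against 0.02 over the 4561 rows. Over the 55 sets, Spearman's rho between mean CPM and log2 ratio was -0.04, a description across rows that share libraries and whose range of folds the rule truncated.

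ENSXETT00000049818, ranked 26 by fold, was the most abundant member before surgery. It had 264, 341, 139 and 186 CPM in the regenerated jaws of animals 2, 3, 6 and 11, against 481, 559 and 407 CPM in the pre-surgery jaws of animals 2, 3 and 6. The groups did not overlap, and the regenerated library of animal 3 was the nearest to the pre-surgery libraries. Its mean was 233 ± 88.9 CPM in regenerated jaw (SD, n = 4) and 482 ± 75.9 CPM in pre-surgery jaw (SD, n = 3), a fold of 2.07. The regenerated libraries ran from animal 6, the lowest, to animal 3.

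ENSXETT00000001133, ranked 10, had the widest gap between the groups as a ratio. It had 65.6, 53.0, 38.2 and 26.2 CPM in the regenerated jaws of animals 2, 3, 6 and 11, against 151, 138 and 128 CPM in the pre-surgery jaws of animals 2, 3 and 6. Even its highest regenerated library lay well under its lowest pre-surgery library, which was 1.95 times as high. In CPM that gap was 62.2, and the members ranked 63 and 26 had wider ones, of 96.8 and 65.4 CPM. Its means were 45.8 ± 17.2 CPM in regenerated jaw (SD, n = 4) and 139 ± 11.7 CPM in pre-surgery jaw (SD, n = 3). The member ranked 11 had the same count in all 8 libraries.

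**Figure D1:**
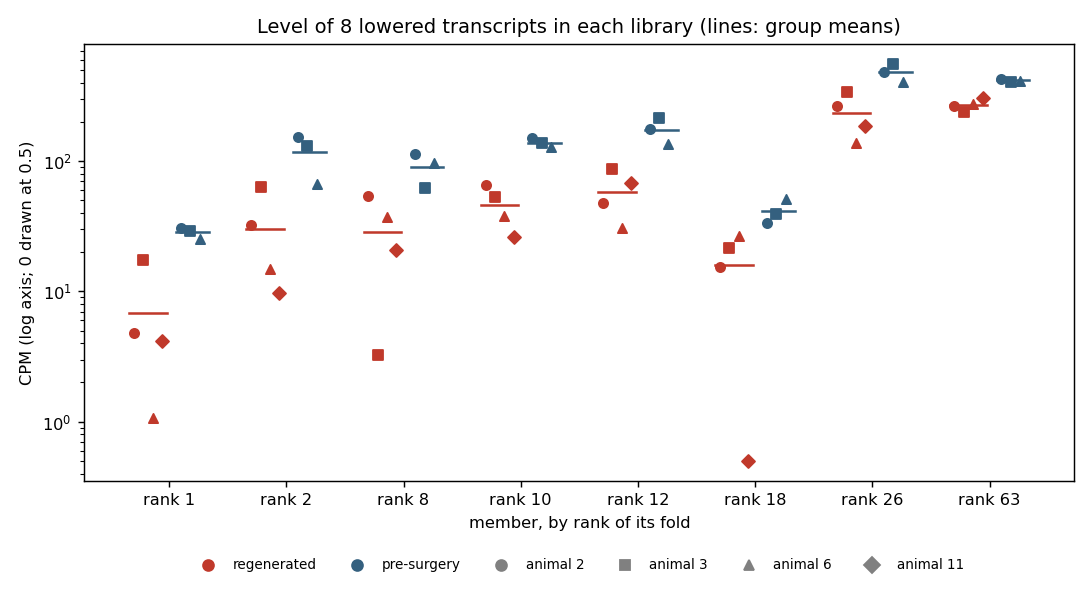
CPM of 8 members in each library on a log axis, with regenerated libraries in red to the left of pre-surgery libraries in blue, 1 symbol per animal and lines at the group means. Member 26 is the most abundant, member 10 has the widest gap as a ratio, and member 18 has 0 counts in the regenerated library of animal 11, drawn at 0.5.

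The member ranked 63 had the next highest pre-surgery mean after the member ranked 26, and was far more even than that member. Its regenerated levels were 265, 240, 276 and 306 CPM in animals 2, 3, 6 and 11, against pre-surgery levels of 431, 403 and 415 CPM in animals 2, 3 and 6. Its fold was only 1.53, yet the means of 272 ± 27.6 CPM in regenerated jaw (SD, n = 4) and 416 ± 13.9 CPM in pre-surgery jaw (SD, n = 3) stood far apart relative to their spread. The member ranked 12 combined a high level with a larger fold. It had 47.7, 87.5, 30.8 and 67.6 CPM in the regenerated jaws of animals 2, 3, 6 and 11, against 176, 213 and 135 CPM in the pre-surgery jaws of animals 2, 3 and 6, a fold of 2.99.

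Members with the largest folds were highest in either of a pair of regenerated jaws, a pattern noticed after their values were seen. Of the 11 members with a fold of 3 or more, 6 were highest in the regenerated jaw of animal 3 and 5 in that of animal 2. These 11 form 8 sets, with 4 sets for each animal. Over all 66 members, 23 were highest in animal 3 and 24 in animal 2, against 17.1% and 14.3% of the rows in the window. In 49.8% of the rows in the window the regenerated library of animal 11 was the highest. The rule removes rows where any regenerated library is high, so the choice fixes part of this contrast. The members ranked 10 and 11, highest in animal 2, were lowest in animal 11. The member ranked 1 had 4.77, 17.3, 1.06 and 4.14 CPM in the regenerated jaws of animals 2, 3, 6 and 11, against 30.8, 29.0 and 25.4 CPM in the pre-surgery jaws of animals 2, 3 and 6. These regenerated levels rest on 4, 16, 1 and 3 counts. The regenerated jaw of animal 3 was the highest of the 4, and all of them lay below the pre-surgery jaws.

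The members ranked 2 and 3, equal in every library, were also highest in animal 3, at a higher level, but lowest in animal 11. They had 32.2, 63.8, 14.9 and 9.66 CPM in the regenerated jaws of animals 2, 3, 6 and 11, against 152, 132 and 67.1 CPM in the pre-surgery jaws of animals 2, 3 and 6. The highest regenerated library, animal 3, came close to the lowest pre-surgery library, animal 6. Within animal 6 the level was nevertheless 14.9 CPM in regenerated and 67.1 CPM in pre-surgery jaw.

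The members ranked 7, 8, 9 and 13 instead had animal 3 as the lowest and animal 2 as the highest regenerated jaw. The member ranked 8 had 53.7, 3.24, 37.1 and 20.7 CPM in the regenerated jaws of animals 2, 3, 6 and 11, against 113, 61.9 and 97.2 CPM in the pre-surgery jaws of animals 2, 3 and 6. Animal 3 held 3 counts of it after regeneration and 47 counts before. The member ranked 9 had 66.8, 14.0, 38.2 and 33.1 CPM in the regenerated jaws of animals 2, 3, 6 and 11, against 158, 89.6 and 112 CPM in the pre-surgery jaws of animals 2, 3 and 6. In these members the pre-surgery jaw of animal 3 was also the lowest of its group.

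Some members, several of the foregoing among them, were nearly missing from at least 1 regenerated jaw. In 11 of the 66, at least 1 regenerated library stood under 10% of the pre-surgery mean, against 1.37% of the rows in the window; the choice of low rows fixes part of this contrast. The lowest library was animal 11 in 5 of them, animal 6 in 4, animal 3 in 2 and animal 2 in 0. Ranks 2 and 3, of equal counts, and ranks 16 and 19, of nearly equal counts, were among these 11. None of the 66 had 2 or more regenerated libraries that low, though others came near the limit. The member ranked 13 had 2.16 and 4.14 CPM in the regenerated jaws of animals 3 and 11, from 2 and 3 counts. The member ranked 1 had 4, 1 and 3 counts in those of animals 2, 6 and 11. In such members a low level in 1 animal alone cannot be told from low levels in several.

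The member ranked 18 had 15.5, 21.6, 26.5 and 0 CPM in the regenerated jaws of animals 2, 3, 6 and 11, against 33.6, 39.5 and 51.2 CPM in the pre-surgery jaws of animals 2, 3 and 6. The count of 0 in animal 11 does not show absence. A fixed floor of 3 counts in that library is 4.14 CPM, which is no exact interval and no upper bound. Rank 18 is the single member with a count of 0 in a regenerated library. The members ranked 15 and 17 were likewise lowest in the regenerated jaw of animal 11, at 1.38 and 4.14 CPM, and like rank 18 they were highest before surgery in animal 6. The member ranked 16 had 32.2, 19.5, 1.06 and 24.8 CPM in the regenerated jaws of animals 2, 3, 6 and 11, against 37.8, 72.5 and 46.4 CPM in the pre-surgery jaws of animals 2, 3 and 6. Here animal 6 was the one that stood low, with 1 count.

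**Figure D2:**
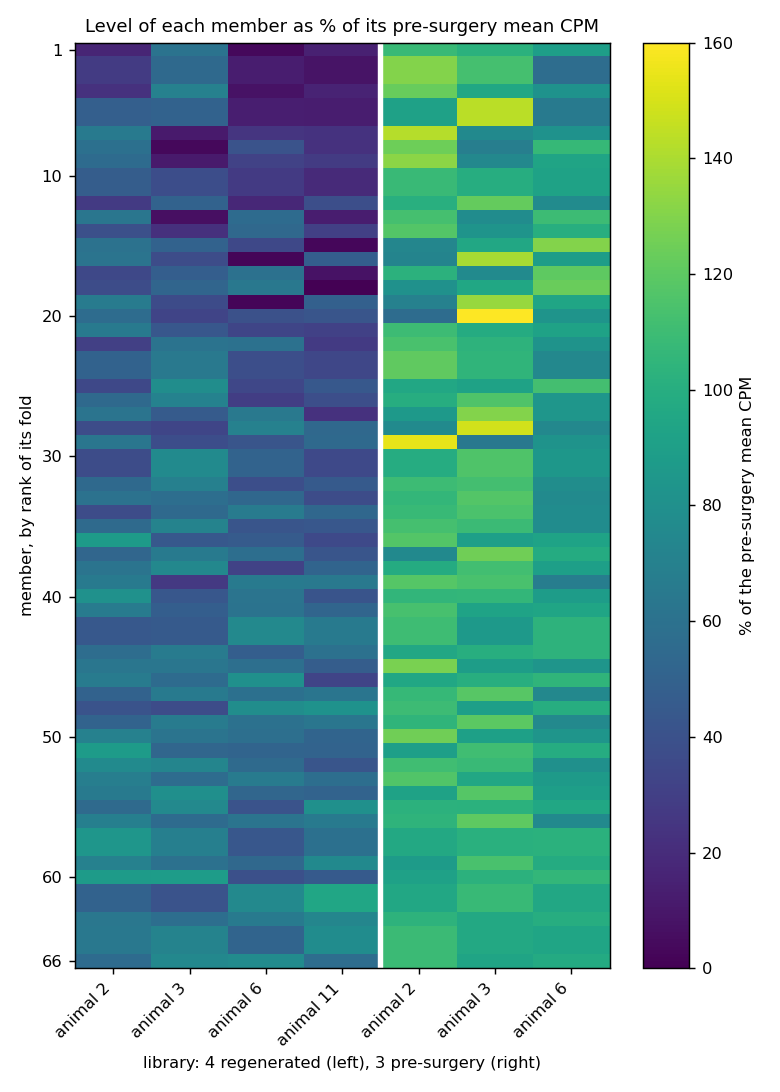
Level of each of the 66 members, 1 row each from the largest fold at the top to the smallest, as a percent of its own pre-surgery mean CPM, in the 4 regenerated (left) and 3 pre-surgery libraries (right). Dark cells among the regenerated libraries mark the members near 0 in at least 1 animal, such as ranks 8, 16 and 18.

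The regenerated jaws were not equally low. Relative to each member's pre-surgery mean CPM, the median over members was 55.8% in animal 2, 55.4% in animal 3, 51.4% in animal 6 and 43.7% in animal 11. Animal 11 was the lowest regenerated library in 26 of 66 members and the highest in 8. Over the 3003 rows of the window, which include the members, the regenerated library of animal 11 was instead the highest in 49.8% and the lowest in 13.5%, with a median of 115% of the pre-surgery mean. After scaling by TMM factors, edgeR's correction for differences in library composition, the window medians were 98.98% to 100.04% in the 4 libraries, and the members' medians were 60.7%, 57.0%, 52.1% and 37.7% in animals 2, 3, 6 and 11. The order of the 4 medians was the same under both scalings. The TMM factors were 0.917, 0.966, 0.982 and 1.16 in regenerated animals 2, 3, 6 and 11. Because they rise in that order, TMM scaling favours the same order, and its recurrence is no separate evidence. Animal 11 has no deep pre-surgery library, so its lower level cannot be set against its own original jaw. The rule set 1 limit, in CPM by library total, for all 4 regenerated libraries. With the window at 115% in animal 11, that limit was stricter there on the TMM scale. The rule also removes rows where any of the 4 is high, and no test of the difference between animals was made.

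**Figure D3:**
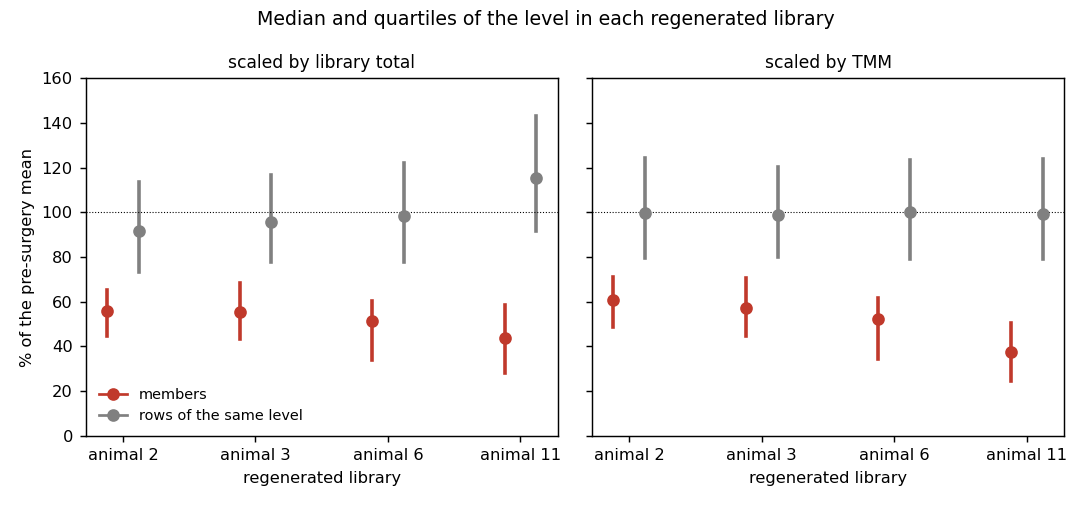
Median (point) and quartiles (line) of the level in each regenerated library, as a percent of the pre-surgery mean, for the 66 members in red and the 3003 rows of the same abundance window in grey, scaled by library total (left) or by TMM factors (right). The members' median is lowest in animal 11 under both scalings, at 43.7% and 37.7%.

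Within single animals the members' median log2 ratio of regenerated over pre-surgery CPM was -0.93 in animal 2, -0.93 in animal 3 and -0.95 in animal 6, against window medians of -0.14, 0.01 and -0.04. The ranges were wide, from -2.69 to -0.01 in animal 2, -4.26 to -0.21 in animal 3 and -5.57 to -0.05 in animal 6. Among the members as chosen, the regenerated levels were at most loosely related between animals. Over the 55 sets, Spearman's rho between regenerated libraries, each relative to the same pre-surgery means, ran from -0.09 for animals 3 and 6 to 0.45 for animals 6 and 11. The same pre-surgery means enter each of these values, so the libraries are not independent in them. The rule also capped the regenerated levels, and in 26 members the lowest regenerated library held fewer than 10 counts. How far these limits set the values was not tested.

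Relative to their means, the members varied more among regenerated than among pre-surgery jaws. The coefficient of variation, the SD as a percent of the mean, had a median of 34.2% in regenerated and 17.1% in pre-surgery jaw, and it was higher in regenerated jaw for 55 of 66 members, against 63.6% of rows in the window. Over the window its medians were 24.2% in regenerated and 19.2% in pre-surgery jaw. The SD itself was higher in regenerated jaw in 31 of 66 members. The rule sets the regenerated mean low, which raises the coefficient, and the lowest regenerated library held fewer than 10 counts in 26 members. The part of counting error in this difference was not tested.

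Together the members took 0.230% ± 0.0315 of counts in regenerated jaw (SD, n = 4) and 0.473% ± 0.0457 in pre-surgery jaw (SD, n = 3). With 1 row per set of equal or nearly equal counts, the means were 0.199% and 0.403%. The shares were 0.259%, 0.256%, 0.204% and 0.202% in the regenerated jaws of animals 2, 3, 6 and 11, against 0.506%, 0.492% and 0.420% in the pre-surgery jaws of animals 2, 3 and 6. The 12 members with a pre-surgery mean of at least 100 CPM carried 39.5% to 45.9% of the members' counts in regenerated and 44.8% to 46.6% in pre-surgery libraries.

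**Figure D4:**
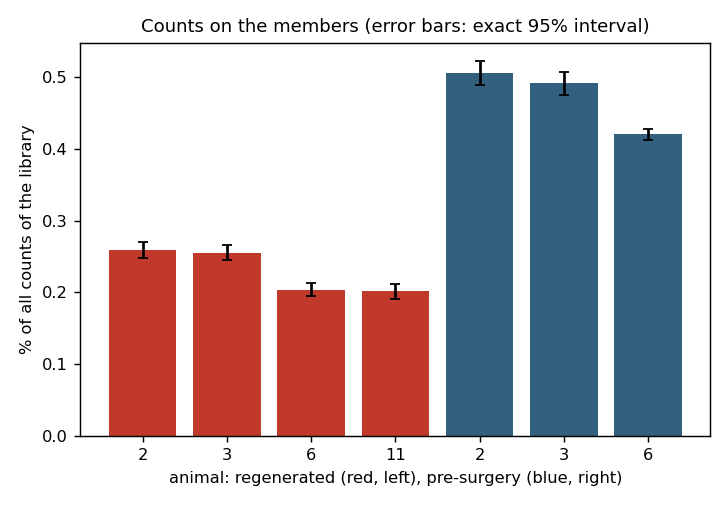
Percent of all counts of each library that fell on the 66 members, with exact 95% binomial intervals for counting error only; regenerated libraries are red, on the left, and pre-surgery libraries blue. Regenerated libraries lie between 0.202% and 0.259% and pre-surgery libraries between 0.420% and 0.506%.

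The near-empty pre-surgery library of animal 11 is the single library that took no part in the choice of members. In it 4 members had 1 count each, so that 4 of 489 counts, or 0.818%, fell on members (exact Clopper-Pearson 95% interval 0.223% to 2.08%). These were the members ranked 26, 45, 50 and 63. The interval holds the shares of all 3 deep pre-surgery libraries and also those of regenerated animals 2 and 3. Those of regenerated animals 6 and 11 lie under it. With 1 row per set, that of regenerated animal 3, at 0.218%, also lies under it, and that of animal 2, at 0.224%, barely inside. The rule kept only rows low in the regenerated libraries, so where their shares lie is partly fixed by the choice. Their place under the interval therefore shows no fall within animal 11. At a depth of 489 counts the members' level before surgery in animal 11 could not be told from the deep pre-surgery libraries. Nor, with all 66 members counted, could it be told from regenerated animals 2 and 3. The interval rests on 4 counts and covers counting error only.

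Depth limits what single members show. The exact Poisson 95% intervals of the lowest pre-surgery and the highest regenerated library were apart in 5 of 66 members, against 0.167% of the rows in the window, which are the same 5 rows. These were ranks 10, 11, 12, 26 and 63, of which ranks 10 and 11 had equal counts. With counts pooled within each group, the intervals were apart in 59, against 9.19% of the rows in the window in that direction, and the choice of members favours such rows. The pooled pre-surgery counts come mostly from animal 6, with 2519291 counts against 714809 and 758942 in animals 2 and 3. All intervals cover counting error only, and pooled counts are no replicates of a group.

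In edgeR's quasi-likelihood test of regenerated against pre-surgery jaw on the 7 libraries, 0 of 66 members passed a Benjamini-Hochberg adjusted p of 0.05, against 0% of the 4561 rows called lower. The smallest adjusted p of a member was 0.0521 (edgeR), and 64 members had an unadjusted p under 0.05, against 6.10% of all rows in that direction. With the animal as a replicate block, 13 members passed, pairs of rows with equal counts among them, against 1.27% of rows called lower. In that fit the block of animal 11 holds 1 library only. The blocked contrast thus rests on the pairs of animals 2, 3 and 6. DESeq2 called 14 (0.504% of 4560 rows, of which only 2261 were given an adjusted p) and limma-voom 5 (0.197%). In edgeR, all 8 libraries gave 4 (0.132%) and no count filter gave 36 (1% of 18034 rows). The members were chosen on this contrast, so these counts are no support for it. ENSXETT00000001133 had a log2 fold change of -1.57 (SE 0.29) at an edgeR adjusted p of 0.0521, while the blocked fit gave -1.38 (SE 0.19) at 0.00797. ENSXETT00000049818 had a log2 fold change of -1.04 (SE 0.29) at an edgeR adjusted p of 0.220, while the blocked fit gave -0.97 (SE 0.17) at 0.0247.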

How the data were processed

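Poly(A)-selected RNA of 8 axolotl jaw samples was sequenced as single reads of 75 nt from fragments of about 300 bp, per the labels' protocols. The deposited table holds raw counts of reads per row and library, as whole numbers with no normalization. The aligner, counter and reference sequences are not given in the sources used here. DESeq and DESeq2 are named in the submitters' processing notes, with no version or role. How reads shared between similar sequences were counted is not known, and this could set the levels of rows with equal counts.

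CPM used library totals. The test was edgeR 4.0.16 (R 4.3.3) with TMM on rows of at least 10 counts in 3 libraries. The pre-surgery library of animal 11, with 489 counts, was left out, as in the rule for the members. Standard errors were the log2 fold change over the square root of F. DESeq2 1.42.0, limma 3.58.1, other scalings, filters and limits of the rule, and leaving out each library were alternatives. The members and all choices were made with earlier results of these data known.

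Named members were, by rule, the one with the widest ratio of lowest pre-surgery to highest regenerated CPM and the one with the highest pre-surgery mean; other members described were chosen after their values were seen. Titles give both groups the numbers 2, 3 and 6, and the protocol takes both jaws from an animal, so these were treated as pairs. Deviations from the group means over 4561 rows correlated at r = 0.08, 0.17 and 0.11 within animals 2, 3 and 6, and at -0.10 to 0.05 between animals. Over the 66 members the values were -0.06, 0.39 and 0.29 within these animals and -0.41 to 0.18 between animals. Deviations cancel within a group, so a higher value within an animal lowers those between animals, and the contrast does not test the pairing. Lists of tissue marker genes matched no identifier and were not used. Near-identical rows had counts within 10% or 3 reads of each other in every library; those with fewer than 200 reads in total had to be equal.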

Additional observations from a re-analysis of the deposited data

Results flagged for a closer look

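Dixon's test for 1 value far from the other 3 was applied to the 4 regenerated libraries for 1 member of each of the 55 sets, for the members' summed share and for the share of the 20 rows with the most reads. It passed its 95% critical value in 2 of 57 cases, where chance gives about 5% for unselected, independent values. The rule capped the members' regenerated levels and all cases share the same 4 libraries. That rate therefore does not apply here, and the count tests nothing. The member ranked 39 by fold was flagged, with a gap of 0.981 of its range. It had 26.3, 10.8, 26.5 and 26.2 CPM in the regenerated jaws of animals 2, 3, 6 and 11, against 47.6, 46.1 and 27.4 CPM in the pre-surgery jaws of animals 2, 3 and 6. The member ranked 51 was flagged at 0.952, with 66.8, 40.0, 39.3 and 38.6 CPM in the regenerated jaws of animals 2, 3, 6 and 11, against 68.5, 84.3 and 75.4 CPM in the pre-surgery jaws of animals 2, 3 and 6. The near-empty pre-surgery library of animal 11, outside the comparison, held 4 counts on members. It was listed because the sum passed a fixed limit of 3 counts, which does not say how many were to be expected.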

How the results depend on the processing

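The 66 members were called lower in 0 cases by edgeR on 7 libraries. Calls on members, with the share of all tested rows called lower in parentheses, were 13 with the replicate block (1.27%), 4 with all 8 libraries (0.132%) and 24 with all 8 and the block (1.64%). With 7 libraries the block leaves animal 11 without a pair, and with 8 its pair rests on a pre-surgery library of 489 counts. Other calls followed the same layout. Calls on members without a block were 14 in DESeq2 (0.504%), which gave an adjusted p to 2261 rows, and 5 in limma-voom (0.197%). In edgeR they were 3 with DESeq2 size factors (0.0658%), 4 with library totals (0.153%), 1 with filterByExpr (0.0245%) and 36 with no filter (1%). Leaving out 1 library gave 0 to 8. It was 0 (0%) without the pre-surgery library of animal 2, 3 or 6. Without the regenerated library it was 5 for animal 2 (0.114%), 8 for animal 3 (0.669%), 1 for animal 6 (0.0704%), and it was 3 without that of animal 11 (0.16%). The members were chosen on this contrast, so a share above that of all rows is no support. The causes were not tested. The log2 fold changes of ENSXETT00000001133 (-1.83 to -1.36) and ENSXETT00000049818 (-1.30 to -0.86) stayed negative in 16 alternatives each. They passed in 11 and in 4 of them, with edgeR, DESeq2 or limma adjusted p from 9.53e-12 to 0.207 and from 1.45e-07 to 0.563. Both lowest values came from edgeR with no count filter alone. The next lowest adjusted p was 0.000361 (DESeq2) for ENSXETT00000001133. For ENSXETT00000049818 it was 0.0142 (edgeR, all 8 libraries with the block).

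The number of rows meeting the rule was 29 at a fold limit of 2, 119 at a lower limit, 100 in an abundance window wider at both ends and 37 in a narrower one. TMM or DESeq2 scaling gave 64 rows each, 56 of them members. Leaving out 1 library, which loosens the requirement of no overlap, gave 78 to 136 rows, of which 56 to 62 were members. It gave 133 rows without the pre-surgery library of animal 6, and 136 and 127 without the regenerated libraries of animals 3 and 11. The median log2 ratio of the fixed members stayed between -1.07 and -0.86 in all 12 alternatives. The difference in summed share, regenerated minus pre-surgery, was -0.24 percentage points. Without the 20 rows with the most reads in the total it was -0.33, from means of 0.392% and 0.723%. Those 20 rows held 40.8% of regenerated and 34.7% of pre-surgery counts on average. Leaving them out raises every share, so -0.33 cannot be read as a larger fall than -0.24. How far this difference in composition sets the members' CPM was not tested. On the full total the difference was -0.20 with 1 row per set, and -0.27 to -0.23 with 1 library left out. Depth limits single members: 5 had counting intervals apart between their nearest libraries.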
